A study of Mus musculus with 9 samples.

Results

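Eicosanoids are signalling lipids made from arachidonic acid, and 10 genes of their synthesis, breakdown and reception were examined here in mouse peritoneal macrophages, out of 55401 gene IDs in the deposited table. The 10 genes were chosen by name for their roles, with earlier results of these data known. They are the cyclooxygenases Ptgs1 and Ptgs2, the terminal prostanoid synthases Hpgds, Tbxas1 and Ptges, the prostaglandin dehydrogenase Hpgd, the receptor Ptger4, and the leukotriene genes Alox5, Alox5ap and Lta4h. All 10 passed the filter on low counts, which left 13501 genes. The libraries hold poly(A) RNA of primary peritoneal macrophages elicited with thioglycollate, a sterile irritant that draws inflammatory macrophages into the peritoneal cavity, and harvested after a short period of adherence in culture. The groups were SE (Stat6S807E/S807E, both copies of Stat6 carrying glutamate in place of a serine), SA (Stat6S807A/S807A, alanine in place of the same serine) and WT, with 3 libraries each. STAT6 is the transcription factor of interleukin-4 and interleukin-13 signalling, and the study is about the phosphorylation of this serine. The labels name no cytokine treatment, no age and no separate animals, so p-values measure only the spread between these samples, which may be technical.

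In macrophages, phospholipases free arachidonic acid from membranes, and the cyclooxygenases turn it into an unstable endoperoxide. Terminal synthases then make prostaglandin D, prostaglandin E or thromboxane from this endoperoxide, the dehydrogenase HPGD inactivates prostaglandins, and receptors such as EP4 answer to those that remain. In the other branch 5-lipoxygenase, helped by its membrane partner FLAP, makes leukotriene A from the same fatty acid, and leukotriene A hydrolase turns this into leukotriene B, a neutrophil attractant.

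Hpgd, Hpgds, Alox5 and Alox5ap were lower in SE macrophages than in both SA and WT macrophages. Hpgd was 1.92-fold lower in SE than in WT and 1.79-fold lower than in SA. Alox5 was 2.16-fold lower than in WT and 2.25-fold lower than in SA. Alox5ap was 1.28-fold and Hpgds 1.30-fold lower than in WT, and they were 1.30-fold and 1.51-fold lower than in SA. Ptger4 was 1.37-fold lower in SE than in SA, and 1.25-fold higher in SA than in WT. Ptgs1, Ptgs2, Tbxas1, Ptges and Lta4h passed the test in none of the 3 comparisons. In bulk RNA, fewer cells of a type and less RNA per cell cannot be told apart, and this holds for every value given here.

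Library totals ran from 17286617 to 24618608 counts. Stat6 itself had 291, 284 and 312 CPM (read counts per library size, scaled by TMM) in SE, 194, 199 and 199.6 CPM in SA, and 198, 201 and 187 CPM in WT. This was 1.51-fold above WT in SE (adjusted p = 6.27e-06 with edgeR). A count cannot show a substitution of 1 amino acid, so that the genotypes were taken from the labels. The 8 core macrophage markers (Adgre1, Csf1r, Itgam, Cd68, Lyz2, Mertk, Fcgr1 and Cd14) summed to 18189 to 20928 CPM in SE, 18379 to 19110 CPM in SA and 18211 to 23333 CPM in WT. Along principal component 3, which held 14.6% of the variance, WT replicate 2 and SE replicate 3 lay at -16.2 and -17.1, apart from WT replicate 1 and SE replicate 2 at 13.3 and 14.9. Every call of a member in SE was kept without either pair of libraries.

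Against WT, 4 of the 10 members were called in SE, all 4 lower, where a call is an edgeR adjusted p under 0.05. Over all 13501 tested genes 5.04% were called in this comparison, 2.35% higher and 2.69% lower. Between SE and SA 5 of the 10 were called, all 5 lower, against 10.2% of all tested genes in either direction, 4.77% higher and 5.42% lower. Between SA and WT 1 of the 10 was called, as higher, against 4.07% of all tested genes in either direction, 1.97% higher and 2.1% lower. The median log2 change of the 10 genes was -0.07 in SE against WT, -0.23 in SE against SA and 0.07 in SA against WT, beside medians over all tested genes of -0.0033, -0.0031 and 0.0014. The comparisons share libraries, since each genotype enters a pair of them, so they do not support one another independently. The members were chosen with earlier results of these data known, so their counts beside the shares of all genes are a description only. Scaling by library totals alone turned the split of calls over all genes between SE and SA into 473 higher and 924 lower, beside 644 higher and 732 lower with TMM. The calls of the 10 genes in SE were the same under both scalings.

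**Figure D1:**
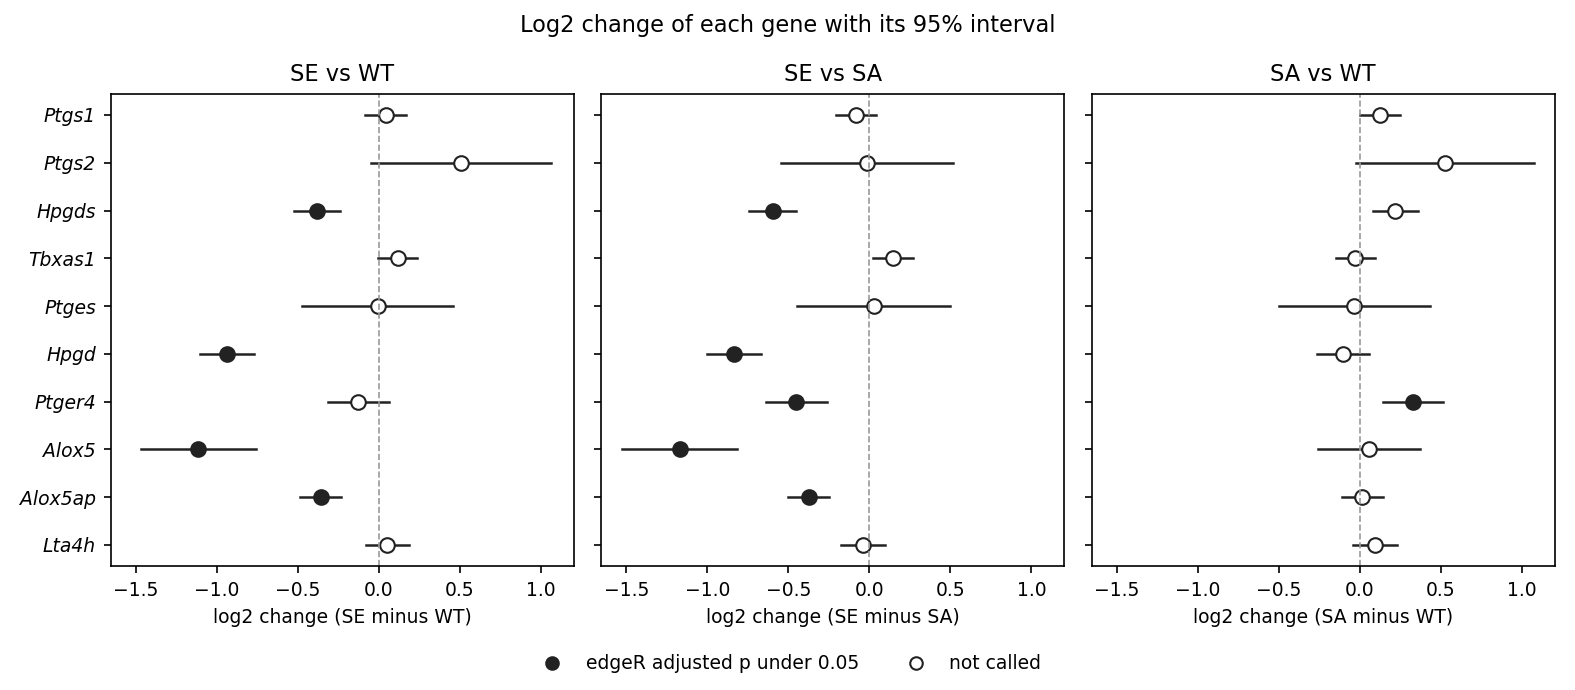
Log2 change of each of the 10 genes (x axis, first group minus second) with its 95% confidence interval from the edgeR fit, for SE against WT, SE against SA and SA against WT; filled points passed an adjusted p under 0.05. Hpgds, Hpgd, Alox5 and Alox5ap are filled and left of 0 in both SE panels, Ptger4 is filled in the SE against SA and SA against WT panels, and the intervals of Ptgs2 and Ptges are wide.

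Per exon length, Alox5ap and Ptgs1 were the most abundant members. RPKM here is the TMM-scaled CPM divided by the exon length of the gene in kilobases. Mean RPKM of Alox5ap was 68.2 in SE, 88.4 in SA and 87.5 in WT, which put it at rank 489 of 13489 genes in WT. Ptgs1 followed with 64.0, 67.8 and 62.2 RPKM in SE, SA and WT. In WT the order went on with Hpgd (55.9 RPKM), Tbxas1 (40.4 RPKM), Hpgds (19.2 RPKM) and Lta4h (10.99 RPKM). Far below them lay Ptger4 (2.55 RPKM), Alox5 (1.25 RPKM), Ptges (0.716 RPKM) and Ptgs2 (0.406 RPKM). The ranges of neighbouring genes in this WT order did not overlap, although the lowest Ptgs1 library (59.5 RPKM) lay just above the highest Hpgd library (58.7 RPKM). In SE the order differed at several places. Hpgd (29.2 RPKM) lay below Tbxas1 (43.8 RPKM) there, and Alox5 (0.569 RPKM) lay at the level of Ptgs2 (0.573 RPKM) and Ptges (0.718 RPKM), with overlapping ranges. The ranges of Alox5ap and Ptgs1 also overlapped in SE.

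**Figure D2:**
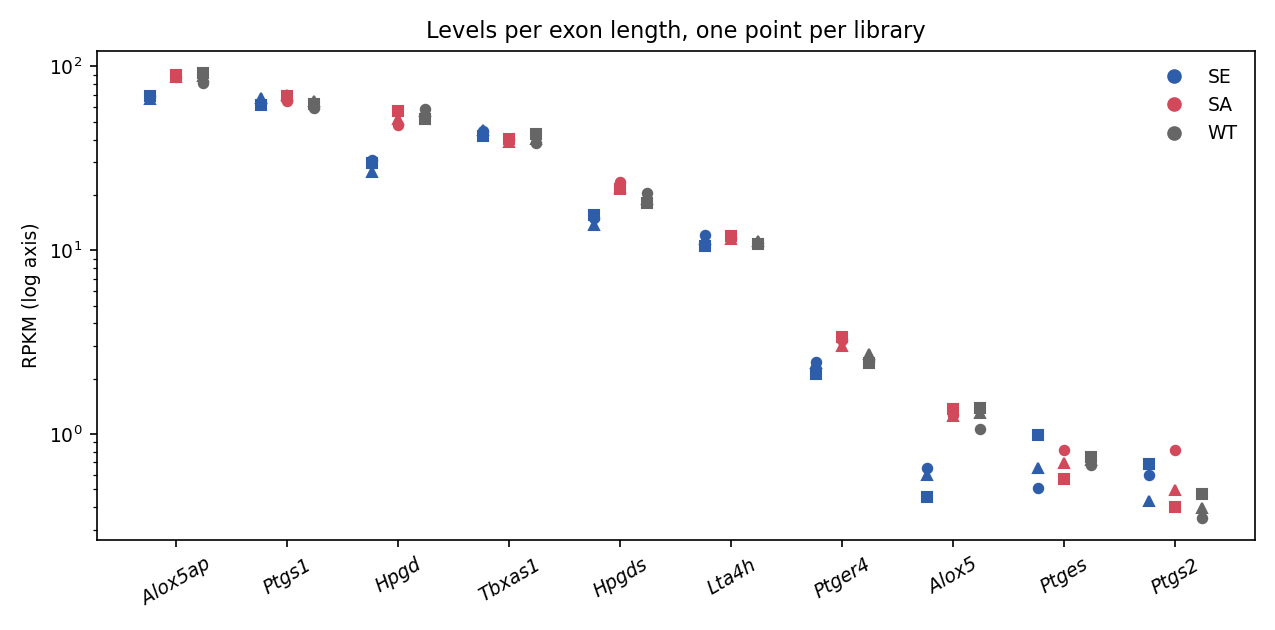
RPKM of the 10 genes (y axis, log scale) in each library, with circles, squares and triangles for replicates 1, 2 and 3 and a colour for each of SE, SA and WT, ordered by the WT mean. Alox5ap is at the top and Ptgs2 at the bottom, and the SE points of Hpgd, Hpgds and Alox5 lie below those of SA and WT.

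The RefSeq promoter table (GRCm38.p6) held 9 of the 10 members, all but Alox5ap. Windows are shown for Hpgd, Hpgds and Alox5, which were lower in SE than in both other genotypes, and for Ptges and Tbxas1, which had a STAT6-type match. Each window holds the 250 bases before the start, 5′ to 3′ on the strand of the gene. Capitals mark GAGGAA, the core of sites for the macrophage factor PU.1, or its complement TTCCTC, and TTCNNNNGAA, the form with 4 spacer bases that STAT6 binds. The windows are Hpgd at chr8:56294302-56294551 on the plus strand, Hpgds at chr6:65144731-65144980 on the minus strand, Alox5 at chr6:116461179-116461428 on the minus strand, Ptges at chr2:30903298-30903547 on the minus strand, and Tbxas1 at chr6:38918736-38918985 on the plus strand.
Hpgd: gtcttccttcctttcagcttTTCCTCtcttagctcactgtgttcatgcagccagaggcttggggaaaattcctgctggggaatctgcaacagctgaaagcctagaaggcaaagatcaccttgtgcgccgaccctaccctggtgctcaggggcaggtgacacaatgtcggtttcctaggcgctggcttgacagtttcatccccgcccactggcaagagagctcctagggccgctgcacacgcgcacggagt
Hpgds: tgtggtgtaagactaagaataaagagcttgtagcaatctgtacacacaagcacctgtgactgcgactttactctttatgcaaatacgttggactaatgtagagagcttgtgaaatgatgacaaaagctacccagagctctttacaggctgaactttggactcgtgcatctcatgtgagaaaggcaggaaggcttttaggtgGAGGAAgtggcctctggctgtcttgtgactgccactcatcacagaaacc
Alox5: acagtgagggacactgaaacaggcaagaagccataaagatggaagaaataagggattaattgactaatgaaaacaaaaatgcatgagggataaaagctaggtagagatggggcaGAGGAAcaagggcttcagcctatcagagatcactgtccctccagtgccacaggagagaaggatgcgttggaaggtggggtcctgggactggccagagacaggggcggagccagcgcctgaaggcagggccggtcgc
Ptges: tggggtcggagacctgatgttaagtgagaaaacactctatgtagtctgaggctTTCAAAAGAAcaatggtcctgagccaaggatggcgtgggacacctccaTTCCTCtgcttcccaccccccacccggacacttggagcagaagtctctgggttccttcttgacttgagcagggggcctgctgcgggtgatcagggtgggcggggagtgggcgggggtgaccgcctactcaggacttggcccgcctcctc
Tbxas1: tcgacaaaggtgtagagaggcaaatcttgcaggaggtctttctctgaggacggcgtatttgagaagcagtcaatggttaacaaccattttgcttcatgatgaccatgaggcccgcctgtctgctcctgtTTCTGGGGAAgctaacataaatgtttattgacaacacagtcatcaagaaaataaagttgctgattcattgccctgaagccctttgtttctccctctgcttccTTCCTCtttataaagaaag

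GAGGAA, searched on both strands, lay in 8 of the 9 windows, all but that of Ptger4, beside 23.3% of 32851 promoters of the same length. It lay 230 bases before the start in Hpgd, 49 in Hpgds and 136 in Alox5. TTCNNNNGAA lay in 2 of the 9, those of Ptges and Tbxas1, beside 5.85% of all promoters, at 197 and 121 bases before the start. Neither Ptges nor Tbxas1 was called in any comparison. TTCNNNGAA, the form with 3 spacer bases used by other STAT factors, lay in 0 of the 9, beside 7.02% of all promoters. GGGCGG, the GC box, lay in 5 of the 9 (Ptgs2, Hpgd, Ptges, Ptger4 and Alox5) beside 32.7%, and TATAAA in 1, that of Tbxas1, beside 12.4%. CACGTG and TGACGTCA lay in none, beside 6.02% and 1.55%. The searched motifs do not overlap one another in the windows that are shown, apart from both TATAAA matches of Tbxas1 on opposite strands. A match describes these letters only, and for Hpgds, Ptges and Tbxas1 the RefSeq start lies inside the outer limits that GENCODE gives the gene, while for Hpgd and Lta4h it lies just before them.

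Ptgs1 encodes cyclooxygenase-1, the constitutive form of the enzyme, and lies on the plus strand at chr2:36230426-36252272 (mm10, GENCODE M21, ENSMUSG00000047250). It had 246, 238 and 262 CPM in SE, 253, 268 and 269.7 CPM in SA, and 231, 241 and 252 CPM in WT. The SE libraries overlapped both other groups, while the lowest SA library lay just above the highest WT library. On the log2 scale the difference was 0.04 in SE against WT (95% CI -0.08 to 0.17, edgeR adjusted p = 0.772), -0.08 in SE against SA (adjusted p = 0.434) and 0.13 in SA against WT (95% CI 0.0012 to 0.25, adjusted p = 0.357).

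Ptgs2, the inducible cyclooxygenase-2 (chr1:150100031-150108227, plus strand, ENSMUSG00000032487), was scarce, with 36 to 85 counts a library. It had 2.74, 3.14 and 1.99 CPM in SE, 3.74, 1.83 and 2.26 CPM in SA, and 1.60, 2.17 and 1.81 CPM in WT. The groups overlapped, and SA replicate 1 was the highest library. The log2 change was 0.51 in SE against WT (95% CI -0.05 to 1.07, edgeR adjusted p = 0.327) and 0.52 in SA against WT (95% CI -0.03 to 1.07, adjusted p = 0.404), so that a difference of about 2-fold lies inside both intervals. Per exon length Ptgs1 stood above Ptgs2 by a mean ratio of 117 ± 34.3 in SE, 131 ± 47.2 in SA and 155 ± 21.2 in WT (SD, n = 3 each), with overlapping ranges.

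Hpgds encodes the hematopoietic prostaglandin D synthase, which makes prostaglandin D in macrophages, mast cells and some T cells (chr6:65117293-65144908, minus strand, ENSMUSG00000029919). It had 96.5, 100.2 and 88.0 CPM in SE, 151, 139 and 140.5 CPM in SA, and 132, 116 and 122 CPM in WT. The 3 genotypes formed 3 separate ranges, with SE lowest and SA highest. Hpgds averaged 94.9 ± 6.22 CPM in SE, 144 ± 6.73 CPM in SA and 123 ± 7.78 CPM in WT (SD, n = 3 each). The log2 change was -0.38 in SE against WT (95% CI -0.52 to -0.24, edgeR adjusted p = 0.00271) and -0.60 in SE against SA (95% CI -0.74 to -0.46, adjusted p = 2.14e-05). Between SA and WT it was 0.22 (95% CI 0.08 to 0.36) and missed the threshold at an edgeR adjusted p of 0.0882. That difference was called without WT replicate 1 (adjusted p = 0.0441) and without SE replicate 3 (adjusted p = 0.0421), which enters the shared estimate of spread. It was also called without WT replicate 2 and SE replicate 3 together (0.0468), without WT replicate 1 and SE replicate 2 together (0.0393) and without a filter on low counts (0.0374).

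Tbxas1, thromboxane A synthase (chr6:38875404-39084585, plus strand, ENSMUSG00000029925), was the member with the most counts per library, 6566 to 8743. It had 403, 382 and 412 CPM in SE, 364, 365 and 352 CPM in SA, and 349, 387 and 367 CPM in WT. All SE libraries lay above all SA libraries, and SE overlapped WT. Its log2 change was 0.12 in SE against WT (95% CI -0.0035 to 0.24, edgeR adjusted p = 0.29) and 0.15 in SE against SA (95% CI 0.03 to 0.27, adjusted p = 0.126). Per exon length Tbxas1 exceeded Hpgds by ratios of 2.95, 2.69 and 3.31 in SE, 1.70, 1.86 and 1.77 in SA, and 1.87, 2.35 and 2.12 in WT. The balance of thromboxane synthase to prostaglandin D synthase transcripts was thus higher in every SE library than in any SA or WT library.

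Ptges encodes the inducible microsomal prostaglandin E synthase (chr2:30889471-30929863, minus strand, ENSMUSG00000050737), has TTCNNNNGAA in its promoter window and had 41 to 73 counts a library. It had 2.01, 3.89 and 2.56 CPM in SE, 3.21, 2.24 and 2.72 CPM in SA, and 2.67, 2.93 and 2.84 CPM in WT. SE replicates 1 and 2 were its lowest and highest libraries, and the groups overlapped. The interval of its log2 change ran from -0.48 to 0.46 in SE against WT (edgeR adjusted p = 0.99). An increase of up to 1.38-fold and a fall to 0.72 of the WT level thus both lie inside the interval.

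Hpgd encodes the hydroxyprostaglandin dehydrogenase that takes the first step in inactivating prostaglandin E and related prostaglandins (chr8:56294585-56321043, plus strand, ENSMUSG00000031613), and its promoter window held GAGGAA and GGGCGG. It had 52.0, 50.2 and 45.0 CPM in SE, 80.3, 96.1 and 86.7 CPM in SA, and 98.8, 87.0 and 96.4 CPM in WT. Every SE library lay well below every SA and WT library, and SA and WT overlapped. Hpgd averaged 49.1 ± 3.62 CPM in SE, 87.7 ± 7.92 CPM in SA and 94.0 ± 6.24 CPM in WT (SD, n = 3 each). Its log2 change was -0.94 in SE against WT (95% CI -1.11 to -0.77, edgeR adjusted p = 1.58e-06) and -0.84 in SE against SA (95% CI -1.004 to -0.67, adjusted p = 3.34e-06). Between SA and WT it was -0.10 (95% CI -0.27 to 0.06, edgeR adjusted p = 0.664). Without WT replicate 2 and SE replicate 3 the log2 change in SE against WT was -0.93, and without WT replicate 1 and SE replicate 2 it was -0.92. Relative to this dehydrogenase, the cyclooxygenase Ptgs1 stood per exon length at 2.05, 2.06 and 2.52 in SE, 1.36, 1.21 and 1.35 in SA, and 1.01, 1.202 and 1.13 in WT. The ratio was thus highest in the SE libraries, where Hpgd was lowest and Ptgs1 was not called.

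Ptger4 encodes EP4, a prostaglandin E receptor that raises cyclic AMP (chr15:5206661-5244187, minus strand, ENSMUSG00000039942). It had 16.4, 14.1 and 16.2 CPM in SE, 21.6, 22.3 and 19.97 CPM in SA, and 16.6, 16.2 and 18.1 CPM in WT. All SA libraries lay above all others, and SE and WT overlapped. The log2 change was -0.45 in SE against SA (95% CI -0.64 to -0.26, edgeR adjusted p = 0.00314), 0.33 in SA against WT (95% CI 0.14 to 0.51, adjusted p = 0.0438) and -0.13 in SE against WT (adjusted p = 0.509). The call between SA and WT ended when any single WT or SA library or SE replicate 1 was left out, with adjusted p between 0.054 and 0.178. It also ended without WT replicate 2 and SE replicate 3 together (0.0541), without WT replicate 1 and SE replicate 2 together (0.115) and with the replicate block (0.0707). The call between SE and SA was kept in all 18 alternative settings. The 10 mesothelial and fibroblast markers summed to 8.78 to 12.6 in SE, 46.9 to 53.3 in SA and 4.15 to 5.11 CPM in WT. The 5 that could be tested, Col1a1, Col1a2, Col3a1, Sparc and Bgn, were all called higher in SA than in WT, beside 1.97% of all tested genes. Msln and Krt19 were at 0 everywhere, Upk3b and Lum had 0 to 1 counts and Dcn had 0 to 10 counts. Whether mesothelial cells or fibroblasts were present, and their part in the level of Ptger4, was not tested. Of the exon bases of Ptger4 15.3% are shared with the pseudogene Gm15937 on the opposite strand, which had 0 to 1 counts. A share of 1.23% overlaps the protein-coding gene Ttc33, also on the opposite strand, which had 405 to 678 counts. The strand setting of the counting is not given, so reads of this overlap cannot be told apart.

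Alox5 encodes 5-lipoxygenase, the enzyme that starts leukotriene synthesis (chr6:116410077-116461178, minus strand, ENSMUSG00000025701), and its promoter window held the same pair of motifs as that of Hpgd. It had 2.69, 1.86 and 2.46 CPM in SE, 5.196, 5.60 and 5.13 CPM in SA, and 4.39, 5.69 and 5.35 CPM in WT. These values rest on 32 to 55 counts a library in SE, and on 97 to 118 in SA and WT. The highest SE library lay below the lowest SA or WT library, and SA and WT overlapped. Alox5 averaged 2.34 ± 0.430 CPM in SE, 5.31 ± 0.253 CPM in SA and 5.14 ± 0.673 CPM in WT (SD, n = 3 each). Its log2 change was -1.11 in SE against WT (95% CI -1.47 to -0.76, edgeR adjusted p = 0.000689) and -1.17 in SE against SA (95% CI -1.53 to -0.82, adjusted p = 0.000211). Between SA and WT it was 0.06 (95% CI -0.26 to 0.37, edgeR adjusted p = 0.939). Without either pair of libraries the log2 change in SE against WT was -1.07 and -1.10.

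Alox5ap encodes FLAP, the membrane protein that hands arachidonic acid to 5-lipoxygenase (chr5:149264767-149288153, plus strand, ENSMUSG00000060063). It had 98.3, 97.5 and 94.6 CPM in SE, 125, 128 and 124 CPM in SA, and 116, 131 and 126 CPM in WT. The SE libraries lay close together and below all others. Alox5ap averaged 96.8 ± 1.95 CPM in SE, 125 ± 1.96 CPM in SA and 124 ± 7.63 CPM in WT (SD, n = 3 each). The log2 change was -0.36 in SE against WT (95% CI -0.49 to -0.23, edgeR adjusted p = 0.00155), -0.37 in SE against SA (95% CI -0.50 to -0.25, adjusted p = 0.000558) and 0.02 in SA against WT (adjusted p = 0.96). Without WT replicate 2 and SE replicate 3 the log2 change in SE against WT was -0.30, and without WT replicate 1 and SE replicate 2 it was -0.42. Of its exon bases 13.3% are shared with the antisense gene Gm19719, which had 4 to 20 counts; the strand setting of the counting is not given in the sources used here, so reads of the pair cannot be told apart there.

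Lta4h encodes leukotriene A hydrolase, which makes leukotriene B (chr10:93453411-93484875, plus strand, ENSMUSG00000015889). It had 74.3, 64.5 and 69.8 CPM in SE, 71.4, 72.8 and 70.3 CPM in SA, and 66.8, 66.1 and 68.2 CPM in WT. The SE libraries spanned both other groups, and all SA libraries lay above all WT libraries. Its log2 change was 0.05 in SE against WT (95% CI -0.08 to 0.19, edgeR adjusted p = 0.727) and 0.09 in SA against WT (95% CI -0.04 to 0.23, adjusted p = 0.624). Per exon length Lta4h exceeded Alox5 by ratios of 18.5, 23.3 and 19.1 in SE, 9.24, 8.75 and 9.21 in SA, and 10.2, 7.82 and 8.58 in WT. Among the leukotriene genes, the enzyme after 5-lipoxygenase was thus not called while 5-lipoxygenase and its partner were lower in SE.

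**Figure D3:**
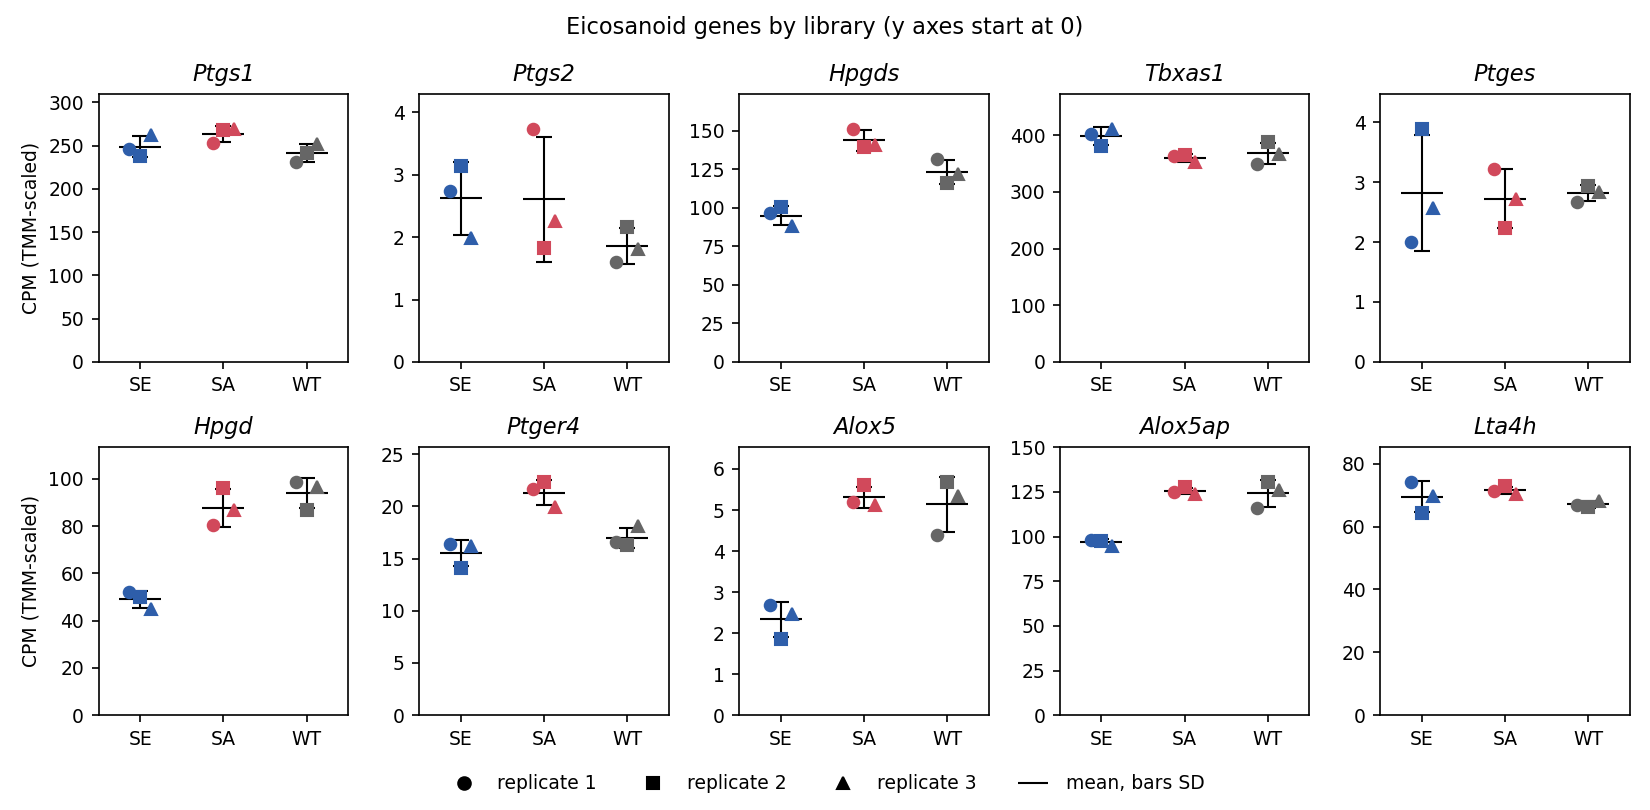
TMM-scaled CPM of the 10 genes (y axes from 0) in each SE, SA and WT library, with replicates 1, 2 and 3 as circle, square and triangle, the mean as a line and the SD as bars. The SE points of Hpgds, Hpgd, Alox5 and Alox5ap lie below all SA and WT points, and the SA points of Ptger4 lie above all others.

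Cell type markers gave these values beside the falls in SE. Mast cells and basophils are rich in Hpgds, Alox5 and Alox5ap, and their 10 markers summed to 1.31 to 1.52 CPM in SE, 1.07 to 1.39 CPM in SA and 1.17 to 1.72 CPM in WT, with Fcer1a, Mcpt4 and Tpsb2 at 0 in every library. The 9 neutrophil markers summed to 2.89 to 3.14 CPM in SE, 2.44 to 2.88 CPM in SA and 2.23 to 2.47 CPM in WT, with Ly6g at 0. Among the neutrophil markers Cxcr2 had 14 to 37, S100a8 4 to 23 and S100a9 3 to 16 counts a library, and among the mast cell markers Gata2 had 16 to 26. The mast cell sums overlapped between the genotypes, and the neutrophil sum of SE lay above those of SA and WT. The 6 eosinophil markers summed to 21.1 to 28.0 CPM in SE, 21.9 to 26.7 CPM in SA and 25.3 to 28.5 CPM in WT, almost all of it Siglecf and Ccr3, while Epx had 0 to 2 counts. Of these Ccr3 was lower in SE (5.83 CPM) than in SA (10.1 CPM; log2 change -0.80, edgeR adjusted p = 0.00596). The 7 platelet markers, mostly Pf4, summed to 29.7 to 32.6 CPM in SE, 22.6 to 26.4 CPM in SA and 26.3 to 32.5 CPM in WT. Pf4 was called higher in SE than in SA (log2 change 0.40). It was the 1 of 3 tested platelet markers called there, beside 4.77% of all tested genes called higher. Ppbp, a defining platelet gene, had 1 to 6 counts. The 5 B cell markers summed to 0.291 to 0.523 in SE, 0.560 to 0.616 in SA and 0.639 to 1.21 CPM in WT. The B cell sum of SE thus lay below the others, but 0 of these markers had enough counts to be tested. The 7 T and NK cell markers summed to 0.366 to 1.18 in SE, 0.611 to 0.924 in SA and 0.880 to 1.56 CPM in WT. These sums overlapped, and Cd3e was at 0 in every library. The 10 markers of resident large peritoneal macrophages summed to 22.8 to 24.7 CPM in SE, 23.3 to 24.9 CPM in SA and 28.0 to 30.4 CPM in WT, with Gata6 at 0 to 1 counts. Most of this sum was Fcna, at 14.8 CPM in SE, 15.6 CPM in SA and 22.1 CPM in WT. Fcna was called lower than in WT in SE (log2 change -0.57) and in SA (-0.50). It was the 1 of 4 tested markers called in each, beside 2.69% and 2.1% of all tested genes called lower. Icam2 went the other way, at 7.44, 6.80 and 5.80 CPM, and was not called. Of the 4 tested markers, 3 had a positive log2 change against WT in SE, and 3 in SA. Among these, Prg4 had only 2 to 16 and Garnl3 6 to 32 counts a library. Of the 8 core macrophage markers, 3 were called lower in SE than in WT, beside 2.69% of all tested genes. They were Cd14 (log2 change -0.50, edgeR adjusted p = 0.000219), Mertk (-0.34, adjusted p = 0.0195) and Fcgr1 (-0.30, adjusted p = 0.0157). Against SA, 2 of the 8 were called lower in SE, Cd14 (-0.82, adjusted p = 5.72e-07) and Fcgr1 (-0.54, adjusted p = 6.45e-05), beside 5.42% of all tested genes. Between SA and WT 1 of the 8 was called, Cd14, as higher in SA (0.32, adjusted p = 0.00601), beside 1.97%. Of the mesothelial and fibroblast markers, Col1a1, Col1a2, Col3a1, Sparc and Bgn could be tested. These 5 were all called lower in SE than in SA, beside 5.42% of all tested genes, with a median log2 change of -2.20. Against WT all 5 had a positive log2 change in SE, with a median of 1.11. Of them 2 were called higher there, beside 2.35% of all tested genes. The part of any of these cell types and of the macrophage makeup in the falls of the members was not tested.

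Of the other eicosanoid genes, 72 were listed and 47 passed the filter. These lists too were chosen with earlier results of these data known, so their counts are a description only. In SE against WT 3 of the 47 were called higher and 2 lower, beside 5.04% of all tested genes in either direction. In SE against SA 8 were higher and 3 lower, beside 10.2%, and in SA against WT 3 were higher and 4 lower, beside 4.07%. Their median log2 changes were 0.0049, -0.0088 and -0.0156. In the list of fatty acid release and remodelling 1 of 14 tested genes was called, Pla2g5, a secreted phospholipase A2. It had 5.19, 5.06 and 5.44 CPM in SE, 3.43, 3.11 and 2.52 CPM in SA, and 2.39, 3.05 and 2.70 CPM in WT. All SE libraries lay above all others, with a log2 change of 0.96 against WT (edgeR adjusted p = 0.00157) and 0.79 against SA (adjusted p = 0.00363). Pla2g4a, the cytosolic phospholipase A2 that feeds both branches, averaged 30.7 CPM in SE, 32.8 CPM in SA and 26.2 CPM in WT and was not called (edgeR adjusted p = 0.175 in SE against WT and 0.0511 in SA against WT).

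Among prostanoid genes beside the members, Ptges2, a second prostaglandin E synthase, was higher in SE than in SA (log2 change 0.31, edgeR adjusted p = 0.0447), a call that ended without WT replicate 3, any SA library, or SE replicate 1 or 3, at an adjusted p of up to 0.176. It also ended without WT replicate 2 and SE replicate 3 together (0.0775), by library totals (0.069) and with the replicate block (0.0583). The EP2 receptor Ptger2, which like EP4 raises cyclic AMP, had 37.0, 34.0 and 37.4 CPM in SE, 27.9, 32.1 and 28.0 CPM in SA, and 35.7, 35.0 and 35.0 CPM in WT. It was higher in SE than in SA (log2 change 0.30, edgeR adjusted p = 0.0162), the opposite direction to Ptger4 in that comparison. Without SA replicate 1, SA replicate 3 or SE replicate 1 its adjusted p was 0.0923, 0.0802 or 0.0702. Ptgfrn, a membrane protein that binds the prostaglandin F receptor, averaged 17.1 CPM in SE, 11.6 CPM in SA and 16.2 CPM in WT. It was lower in SA than in WT (log2 change -0.47, edgeR adjusted p = 0.0042) and higher in SE than in SA (0.56, adjusted p = 0.000673). The prostacyclin receptor Ptgir (38.3, 39.4 and 46.1 CPM in SE, SA and WT) and the prostaglandin E receptor Ptger3 (6.83, 7.44 and 8.76 CPM) were not called. The prostaglandin F receptor Ptgfr had 0 counts in every library, where 3 counts would be 0.122 to 0.174 CPM, and Tbxa2r and Ptgdr had 0 to 1 counts. Slco2b1, an organic anion uptake transporter, had 7.30, 7.50 and 8.68 CPM in SE, 5.64, 4.48 and 5.03 CPM in SA, and 12.1, 13.8 and 12.2 CPM in WT. The genotypes formed 3 separate ranges, and Slco2b1 was lower in SE than in WT (log2 change -0.69, edgeR adjusted p = 0.00162) and in SA than in WT (-1.32, adjusted p = 3.32e-06), and higher in SE than in SA (0.63, adjusted p = 0.00422).

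Among the other leukotriene genes, Ltc4s, the leukotriene C synthase, averaged 3.38 CPM in SE, 4.10 CPM in SA and 4.0 CPM in WT and was not called. Mgst2, a glutathione transferase that can also make leukotriene C, was lower in SA than in WT (log2 change -0.86, edgeR adjusted p = 0.033), a call that ended without any single SA or WT library at an adjusted p of up to 0.179. Leaving out either pair of libraries (0.0673 and 0.0957), adding the replicate block (0.0541) or testing with DESeq2 (0.0835) ended it too. The log2 change of Mgst2 in SE was -0.71 against WT (edgeR adjusted p = 0.0742, not called) and 0.16 against SA (adjusted p = 0.762). Cyp4f16, a cytochrome of the family that oxidises leukotriene B and of which near-identical copies may share reads, was lower in SE than in SA (-0.53, adjusted p = 0.000766). Cotl1, an actin-binding partner of 5-lipoxygenase, was higher in SE than in SA (0.33, adjusted p = 0.00615), and Abcc1, an exporter of leukotriene C, was lower (-0.27, adjusted p = 0.0239), a call that ended without SA replicate 1 or 3 or SE replicate 1 or 2, at an adjusted p of up to 0.124, and without WT replicate 1 and SE replicate 2 together (0.0544). Aloxe3, a lipoxygenase of the skin, was called higher in SE than in SA on 2 to 12 counts a library, and lost the call in 13 of 17 settings that could be computed, at an adjusted p of up to 0.172.

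Of the receptors for leukotrienes and for lipid mediators of resolution 5 were tested, of which 2 were called higher in SE than in WT, beside 2.35% of all tested genes, and 3 were called higher in SA than in WT, beside 1.97%. None of the 5 was called lower in these comparisons. Between SE and SA 1 was called higher, beside 4.77%, and 1 lower, beside 5.42%. As with the other lists, the receptors were chosen with earlier results known, so these counts are a description only. Cysltr2, a receptor for cysteinyl leukotrienes, had 4.21, 3.49 and 3.03 CPM in SE, 2.33, 1.88 and 2.21 CPM in SA, and 1.88, 2.17 and 1.67 CPM in WT. All SE libraries lay above all others, with a log2 change of 0.92 against WT (edgeR adjusted p = 0.00826) and 0.74 against SA (adjusted p = 0.0183). The call against WT ended without WT replicate 3 (adjusted p = 0.064) or SE replicate 1 (0.0688) and without WT replicate 1 and SE replicate 2 together (0.0669), and the call against SA without SA replicate 2 (0.0866), SA replicate 3 (0.0535) or SE replicate 1 (0.117). Cysltr1, the other such receptor, averaged 15.1 CPM in SE, 20.5 CPM in SA and 15.1 CPM in WT, and was higher in SA than in WT (log2 change 0.43, edgeR adjusted p = 0.0471) and lower in SE than in SA (-0.44, adjusted p = 0.0235). The call against WT ended without WT replicate 2 or 3, any SA library, or SE replicate 1 or 2, at an adjusted p of up to 0.178, and by library totals (0.0677). The call against SA ended without any SA library or SE replicate 3, at an adjusted p of up to 0.0968. Ltb4r1, the high-affinity leukotriene B receptor, had 2.99, 2.38 and 2.51 CPM in SE, 3.96, 3.31 and 2.77 CPM in SA, and 1.84, 1.29 and 1.49 CPM in WT. All WT libraries lay below all others, and the log2 change was 1.10 in SA against WT (edgeR adjusted p = 0.00318) and 0.75 in SE against WT (adjusted p = 0.051, not called). Cmklr1, the chemerin receptor that has also been described as a receptor for resolvin E, averaged 56.7 CPM in SE, 66.6 CPM in SA and 42.7 CPM in WT. It was higher than in WT in SE (log2 change 0.41, edgeR adjusted p = 0.00665) and in SA (0.64, adjusted p = 8.8e-05). The call in SE ended without WT replicate 1 and SE replicate 2 together (adjusted p = 0.0808). Ephx1, the microsomal epoxide hydrolase, averaged 53.5 CPM in SE, 58.9 CPM in SA and 72.7 CPM in WT, and was lower than in WT in SE (-0.44, adjusted p = 0.00365) and in SA (-0.30, adjusted p = 0.0438). Leaving out WT replicate 2 or 3, any SA library, or SE replicate 1 or 2 ended the call in SA, with an adjusted p of up to 0.284, as did library totals (0.0574).

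**Figure D4:**
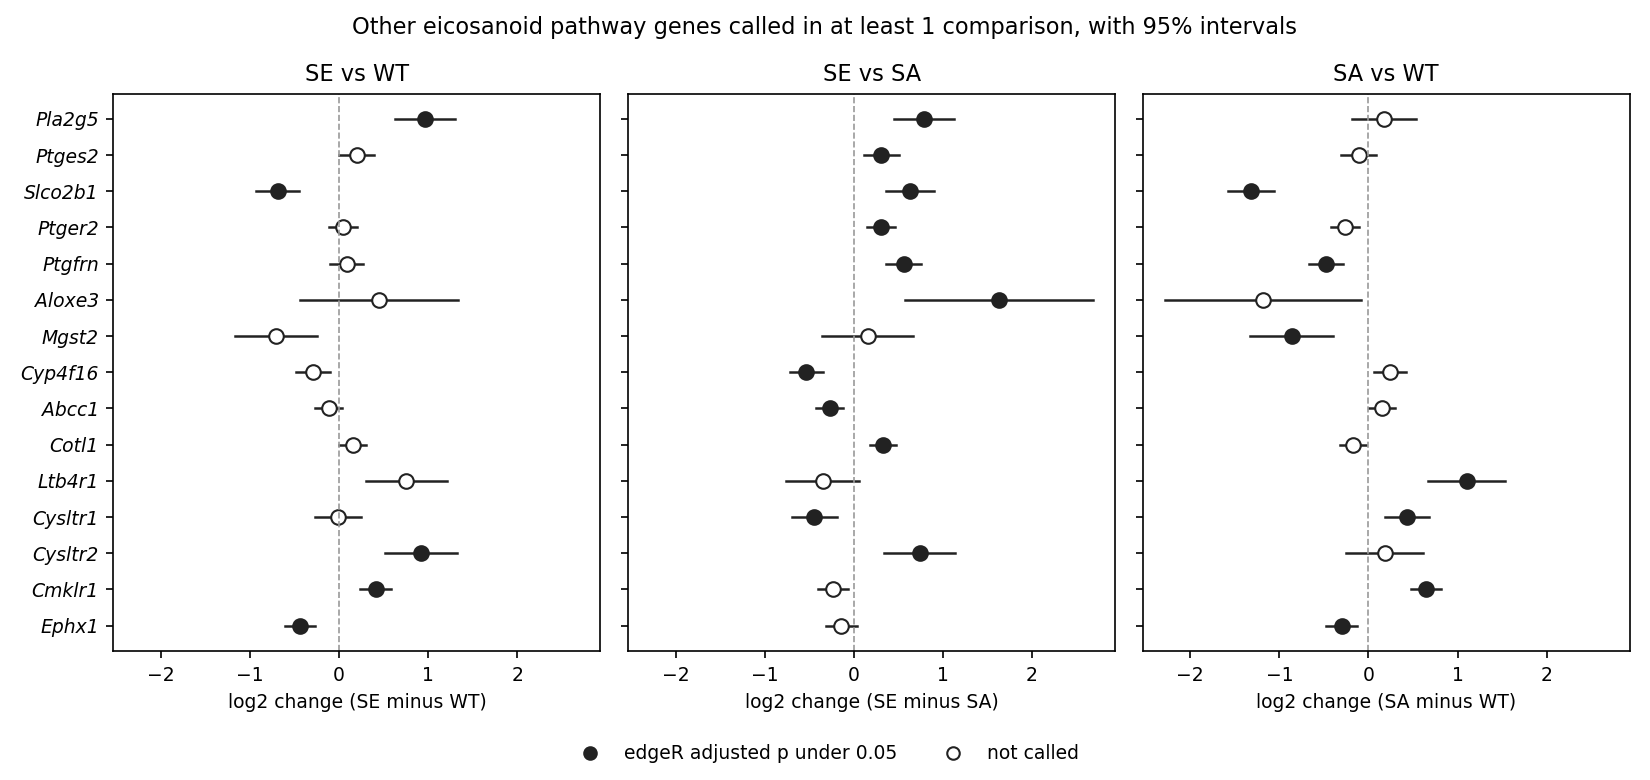
Log2 change (x axis, first group minus second) with its 95% confidence interval for the 15 other pathway genes called in at least 1 comparison, in SE against WT, SE against SA and SA against WT; filled points passed an edgeR adjusted p under 0.05. Pla2g5 and Cysltr2 are filled and right of 0 in both SE panels, Slco2b1 is filled in every panel, and the interval of Aloxe3 is the widest.

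The genes whose levels followed the called members most closely over the 9 libraries were named by Pearson correlation of log2 CPM, which is a description and reflects the shared genotype groups. For Hpgd they were Ugt1a7c (r = 0.984), Gpr155 (0.974) and Stom (0.974); Ugt1a genes share exons, so the counts of Ugt1a7c are uncertain. For Hpgds they were Fyb (r = 0.975), Pid1 (0.974) and Epb41l2 (0.97). For Alox5 they were Kif13a (0.972), Adcy2 (0.971) and Wdfy1 (0.966), and for Alox5ap Rhobtb1 (0.985), Parp8 (0.983) and Trim16 (0.969). For Ptger4 they were Icam1 (0.956), Rcsd1 (0.952) and Rgs3 (0.949). Wdfy1, for example, averaged 21.6 CPM in SE, 39.2 CPM in SA and 37.5 CPM in WT, and Icam1, an adhesion molecule, 39.3 CPM in SE, 53.0 CPM in SA and 42.9 CPM in WT. Adcy2 rested on low counts, at 0.544 CPM in SE, 1.73 CPM in SA and 1.57 CPM in WT.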

How the data were processed

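Poly(A) RNA was sequenced from 9 macrophage libraries, 3 of each genotype, grouped by the genotype labels. The deposited table holds raw read counts per Ensembl gene. Reads were aligned to mm10 with HISAT2 2.1.0 and counted with featureCounts, per the submitters' processing notes. Which annotation release, strand setting and rule for multi-mapping reads were used is not given in the sources used here. GENCODE M21, which gave symbols, positions and exon lengths, held 55141 of the 55401 gene IDs and lacked 260. Of 156 symbols in the member, pathway and marker lists 154 matched.

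One edgeR 4.0.16 model (R 4.3.3) covered all libraries (filterByExpr with minimum count 10 and minimum total 15, TMM, robust quasi-likelihood fit on genotype, 2-sided F test, Benjamini-Hochberg adjustment over 13501 genes, calls at an adjusted p under 0.05). The fit had 6 residual degrees of freedom and a biological coefficient of variation of 6.75%, and was tested on simulated data. CPM are counts scaled to library size by TMM, and intervals are 95% intervals of the fit. Totals of 17286617 to 24618608 counts make 3 counts worth 0.122 to 0.174 CPM, which covers counting error only. DESeq2 1.42.0, other filters and scalings, the replicate block and omission of libraries were alternatives, 18 settings in all.

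The members and lists were chosen with earlier results of these data known. The text names the members, the other pathway genes called in at least 1 comparison, the most abundant gene of a list or the tested receptors where the results turn on them, and for each called member the 3 protein-coding genes with the highest correlation. Genes named for having few counts, Pla2g4a, Ltc4s and single markers were added after their values were seen. Libraries of 1 genotype differed by more than sampling noise. Equal replicate numbers gave no sign of pairing the libraries, but 3 libraries a genotype are too few to exclude it.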

Additional observations from a re-analysis of the deposited data

How the results depend on the processing

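The calls of Hpgd, Hpgds, Alox5 and Alox5ap in SE against WT and against SA, and of Ptger4 in SE against SA, kept direction and threshold in all 18 alternative settings. Over these settings the log2 change in SE against WT ran from -0.99 to -0.88 for Hpgd, from -0.42 to -0.33 for Hpgds, from -1.23 to -0.98 for Alox5 and from -0.42 to -0.30 for Alox5ap. The number of called members in SA against WT was 1, became 2 without a filter on low counts, and ran from 0 to 2 when single libraries were left out. Counts over all genes depended on single libraries. With single libraries left out they ran from 292 to 1097 in SE against WT (680 with all), from 781 to 1762 in SE against SA (1376) and from 297 to 652 in SA against WT (549). Without WT replicate 3 the first was 292, and without WT replicate 2 it was 1097. Without WT replicate 2 and SE replicate 3 together the counts were 1215 in SE against WT and 903 in SA against WT, and without WT replicate 1 and SE replicate 2 together 372 in SE against WT. A fit on the SE and WT libraries alone called 438 genes. Of the other pathway genes 4 to 9 were called in SE against WT (5 with all libraries), 5 to 15 in SE against SA (11) and 4 to 9 in SA against WT (7) with single libraries left out, and without WT replicate 2 and SE replicate 3 together 9 in SE against WT and 11 in SA against WT. The cause of these differences was not tested.

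Changes that were not called turned direction in some settings. With single libraries left out, the log2 change in SA against WT ran from -0.1741 to 0.0909 for Ptges, -0.0649 to 0.0097 for Tbxas1, -0.0532 to 0.1292 for Alox5 and -0.0332 to 0.052 for Alox5ap. In SE against WT it ran from -0.2983 to 0.1935 for Ptges and -0.0988 to 0.1259 for Cysltr1. In SE against SA it ran from -0.2185 to 0.3489 for Ptgs2, -0.2634 to 0.2279 for Ptges and -0.0901 to 0.0116 for Lta4h. Without WT replicate 2 and SE replicate 3 together, the direction turned for Tbxas1 in SA against WT (0.0118), Ptges (0.0763) and Cysltr1 (0.0412) in SE against WT, and Ptgs2 in SE against SA (0.1464). Without WT replicate 1 and SE replicate 2 together it turned for Alox5 (-0.0525) and Alox5ap (-0.0325) in SA against WT, Ptgfrn (-0.0146) and Cysltr1 (0.032) in SE against WT, and Ptges (-0.2691) and Lta4h (0.0065) in SE against SA. Library totals turned Ptges in SE against SA (-0.0172).

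Libraries with equal replicate numbers correlated at -0.195 to 0.105 in their deviations from the genotype means. Those with unequal numbers correlated at -0.261 to 0.27. This gave no sign that the numbers pair the libraries, but 3 libraries a genotype are too few to exclude it. With the replicate block 568, 1189 and 500 genes were called in SE against WT, SE against SA and SA against WT, with 4, 5 and 0 of the members, and Ptger4 in SA against WT had an edgeR adjusted p of 0.0707. Depth limits Ptgs2, Ptges and Alox5, which had 32 to 118 counts a library, and antisense or pseudogene overlap limits Ptger4 and Alox5ap. Transcript levels say nothing of enzyme activity or of the lipids made.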

Other observations

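Dpep2, a dipeptidase that turns leukotriene D into leukotriene E, is listed under 2 overlapping gene IDs and was left out of the pathway counts. The more abundant of them (ENSMUSG00000053687) averaged 33.1 CPM in SE, 45.0 CPM in SA and 35.8 CPM in WT, with an edgeR adjusted p of 0.000904 in SE against SA and 0.0145 in SA against WT. The other (ENSMUSG00000115067) averaged 3.03 CPM in SE, 4.64 CPM in SA and 3.27 CPM in WT, with an edgeR adjusted p of 0.0141 and 0.0645 in the same comparisons. Both IDs were thus highest in SA, as Ptger4 and Cysltr1 were. Dpep2 was chosen after its values were seen.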
